A study of Mus musculus with 10 samples.

Results

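The genes described here encode the enzymes that activate long-chain fatty acids, carry them into mitochondria as carnitine esters and shorten them by beta-oxidation, together with enzymes of the peroxisomal route. They were chosen by symbol from a list of 30 enzymes, which was made with earlier results of these data known. Of these 30 genes, 29 had a row among the 13492 genes of the expression table, and Acot1 was not analysed here. Expression was measured by oligo-dT RNA sequencing of the tibialis anterior, a fast-twitch hind limb muscle, of C57BL/6 mice aged 6 months after a fast of 3 h. The libraries labelled Lrtm1 KO numbered 5 and the control libraries, labelled Lrtm1 WT and described as Lrtm1 flox controls in the design text, also numbered 5, although that text gives a smaller group size. The sources used here do not give the driver of recombination, the deleted part of Lrtm1 or the sex of the mice. Nothing in the labels says in words that each library is a separate mouse, so that p-values measure the spread between these libraries.

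Beta-oxidation removes acetyl-CoA units from an acyl-CoA in a repeated cycle of dehydrogenation, hydration, a further dehydrogenation and thiolysis. In muscle the entry of long chains is set at carnitine palmitoyltransferase 1 on the outer mitochondrial membrane, which malonyl-CoA inhibits. Electrons from the first dehydrogenation pass through the electron transfer flavoprotein to ubiquinone, and very long chains are first shortened in peroxisomes. Loss of several of these enzymes causes fasting intolerance or muscle and heart disease, and PPAR and ERR nuclear receptors are known regulators of the pathway.

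Values are on the log2 CPM scale, where CPM are read counts scaled to the library total, after an adjustment by the authors, and the read depth behind them is unknown. The libraries had medians between 3.346 and 3.358 log2 CPM. Each of the 3 litters held both labels, with 2 labelled KO and 1 control libraries in litter 108, 1 and 2 in litter 110, and 2 and 2 in litter 112. The targeted gene went against the labels: Lrtm1 spanned 5.97 to 6.21 log2 CPM in libraries labelled KO and 5.61 to 5.78 in controls (log2 difference 0.44, limma adjusted p = 0.0344), so all directions below are between libraries as labelled. Muscle fibre transcripts dominated the tissue, with Myh4 at 15.07 ± 0.05 log2 CPM in libraries labelled KO and 14.94 ± 0.12 in controls (SD, n = 5 each). Control replicate 5 stood apart from its group for these enzymes. It was the highest control in 19 of the 29 genes (65.5%), against 30.4% of all genes tested, and in libraries labelled KO replicate 4 was the lowest in 15 of 29 (51.7%), against 31.9% of all genes. Both belong to litter 112. In litter 110, replicate 3 labelled KO was the highest of its group in 14 of 29 (48.3%), against 17.3% of all genes, and control replicate 4 the lowest control in 14 of 29 (48.3%), against 23.9%. The authors' adjustment removed litter with genotype kept, so deviations from the group means cancel out within each litter. High and low positions of libraries of the same litter are therefore tied and are not separate observations.

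No enzyme of the pathway passed the test between libraries labelled KO and controls. The test was limma's moderated linear model fitted over 12223 genes, with litter and the terms removed by the authors counted, and a Benjamini-Hochberg adjusted p of 0.05 as the threshold. All 29 genes passed the expression minimum, and 0 of 29 were past the threshold, against 0.335% of all genes tested (0.27% higher and 0.0655% lower in libraries labelled KO). With genotype and litter alone in the fit, which counts too many degrees of freedom, 0 of 29 passed again, against 8.62% of all genes (5.15% higher and 3.48% lower). At an unadjusted p under 0.05 there was 1 gene, Decr1, against 10.1% of all genes tested, and 6 with genotype and litter alone, against 26.4%. The smallest adjusted p of any member was 0.345 (Decr1), and 0.0559 with genotype and litter alone.

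The differences were small, and most lay slightly below 0. Of 29 genes, 22 (75.9%) had a log2 difference below 0, where 51.4% of all genes tested did. The median over the 29 was -0.05, against -0.0041 over all genes. The range ran from -0.21 for Decr1 to 0.08 for Eci1. For 28 of the 29 the 95% interval of the difference held 0, and no interval reached below 0.778-fold or above 1.24-fold. The intervals could be too narrow, because it is not known how far the terms taken out by the authors ran along with genotype. In bulk tissue, fewer fibres of an oxidative type and less RNA per fibre cannot be told apart.

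**Figure D1:**
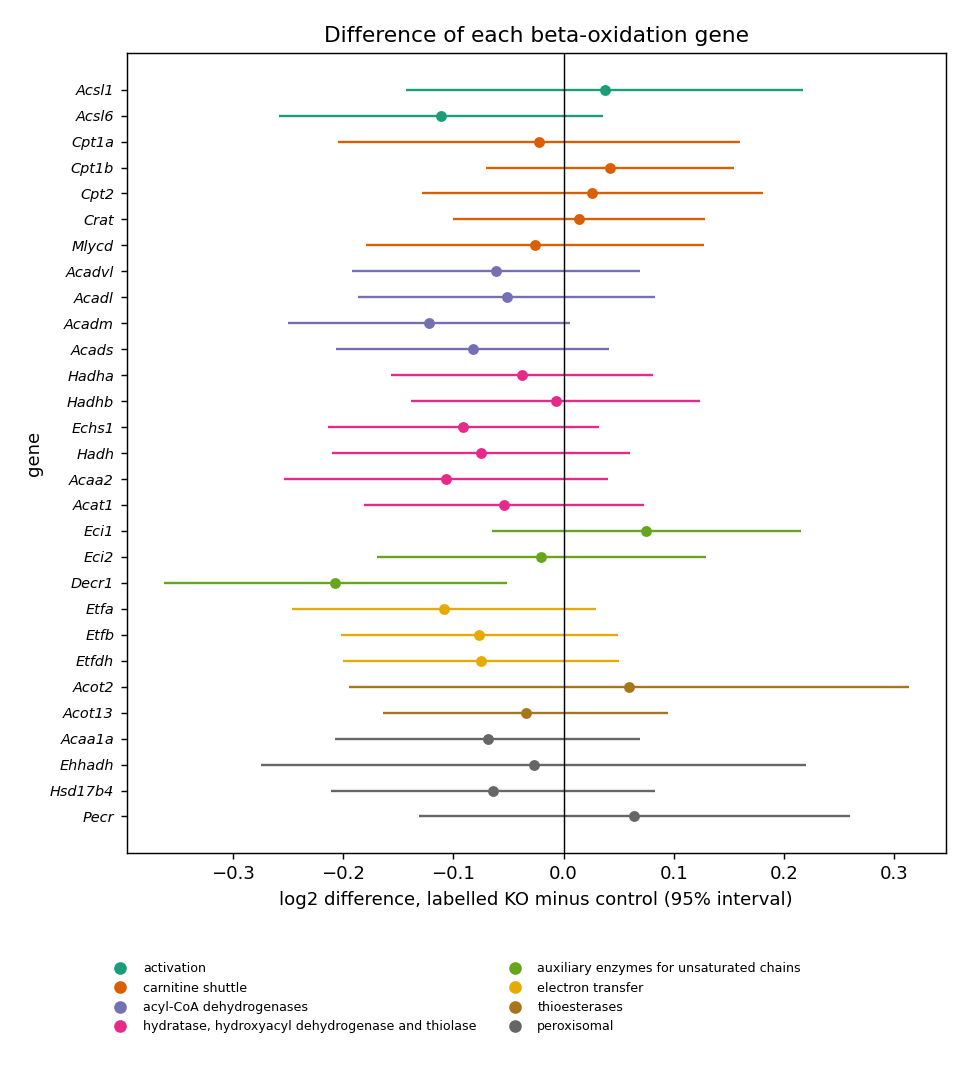
Log2 difference of each of the 29 genes, labelled KO minus control, with its 95% interval from limma; colours give the step of the pathway. All intervals but that of Decr1 cross 0, and the points run from -0.21 to 0.08.

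The direction below 0 was uneven between litters. The removal of litter ties these differences to each other, so they are not separate observations. Litter 108 held 1 control library and litter 110 held 1 library labelled KO. Within litter 112 the log2 difference was below 0 in 23 of 29 genes with a median of -0.11, against 50% and 0.0001 over all genes. In litter 108 it was below 0 in 17 of 29 with a median of -0.01, and in litter 110 in 15 of 29 with a median of -0.0051. All-gene medians there were -0.0074 and -0.0013. Members below 0 in all 3 litters numbered 11, or 37.9% of 29, against 24.2% of all genes tested; 3 were above 0 in all 3 litters, against 23.6%. Without control replicate 5 the median over the 29 genes was -0.03, and 69% lay below 0.

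Transcript abundance spanned a wide range over the pathway, in much the same order in both groups. On a scale of CPM per kilobase of the longest annotated coding transcript, Hadhb, the thiolase subunit of the trifunctional protein, was the most abundant, at 193 ± 5.99 in libraries labelled KO and 194 ± 8.39 in controls (SD, n = 5 each). The bifunctional peroxisomal enzyme gene Ehhadh was the least abundant, at 2.92 ± 0.247 in libraries labelled KO and 2.98 ± 0.319 in controls. Below Hadhb came 5 genes within a narrow band. In the order of the controls they ran from Acadvl, at 112 ± 3.37 CPM per kilobase in libraries labelled KO and 117 ± 5.82 in controls, through Acadm, Acadl and Cpt1b to Crat, at 105 ± 0.950 in libraries labelled KO and 104 ± 1.33 in controls. The order differed in libraries labelled KO, where Cpt1b came next to Acadvl and Acadm, at 104 ± 3.02, lay below Crat. In controls each of Acadm, Acadl and Cpt1b stood within 1 SD of the gene above it, so their order is not fixed beyond the spread. The Cpt1a isoform, which predominates in liver, was near the bottom at 3.39 ± 0.137 in libraries labelled KO and 3.44 ± 0.228 in controls.

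**Figure D2:**
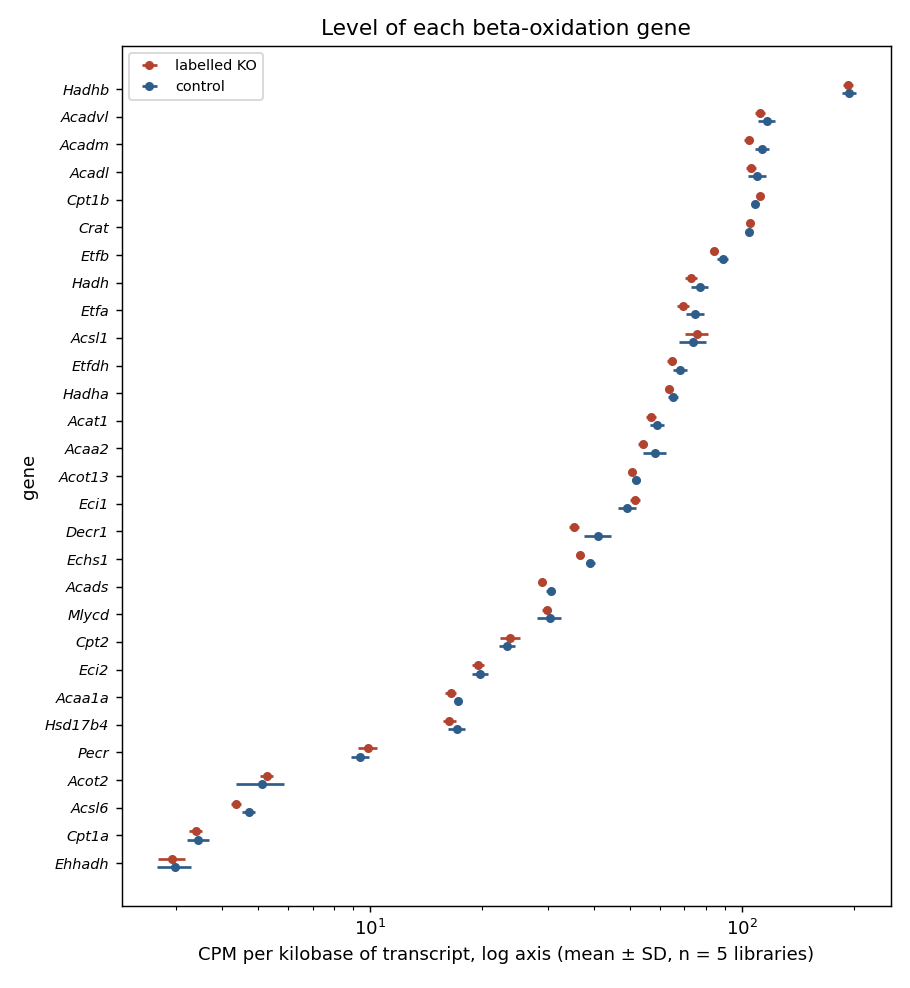
Level of each of the 29 genes in CPM per kilobase of transcript on a log axis, mean ± SD over 5 libraries labelled KO (red) and 5 controls (blue). Hadhb is highest at 193 and 194, Ehhadh lowest at 2.92 and 2.98, and the 2 groups lie on top of each other for most genes.

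Activation of fatty acids to acyl-CoA was represented by a major and a minor synthetase gene, neither of which passed. Acsl1, the main long-chain acyl-CoA synthetase of muscle, had 8.28, 8.23, 8.31, 8.07 and 8.12 log2 CPM in libraries labelled KO replicates 1 to 5, against 8.06, 8.22, 8.01, 8.30 and 8.24 in control replicates 1, 3, 4, 5 and 6. The groups overlapped fully, and the log2 difference was 0.04 (SE 0.08, adjusted p = 0.922). It was 0.19 in litter 108 and 0.20 in litter 110 but -0.18 in litter 112. Acsl6, a synthetase with high activity on polyunsaturated chains, had 4.70, 4.66, 4.71, 4.60 and 4.63 log2 CPM in libraries labelled KO and 4.73, 4.78, 4.72, 4.86 and 4.77 in controls. All 5 libraries labelled KO lay below all 5 controls, by a log2 difference of -0.11 (SE 0.07, adjusted p = 0.631).

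Among the members with a promoter sequence, Acsl6 was also the only gene that held the ERR site TCAAGGTCA. Promoters from RefSeq (GRCm38.p6, from 250 bases before to 50 after each gene's first listed start) matched 23 of the 30 symbols. Acot1 was included for its promoter alone, and none was matched for Decr1, Cpt1b, Crat, Acaa2, Acat1, Acot13 and Hsd17b4. The ERR site was found in 1 of 23 (4.35%), against 0.407% of 27025 promoters of the same length. The shorter half-site AGGTCA, which lies within it, was in 5 of 23 (21.7%), those of Acadm, Acadvl, Acsl6, Cpt1a and Echs1, against 16% of all promoters. The GC box GGGCGG was in 18 of 23 (78.3%), against 35.9%, 2 half-sites AGGTCA in tandem with 1 base between them in 0 of 23, against 0.0444%, and the NRF1 site, GCGCA followed directly by TGCGC, in 1, Etfdh, against 0.977%. Both strands were searched, and the E-box CACGTG and the TATA box TATAAA were in 0 of 23, against 7.24% and 14.2%. These matches describe letters and not binding. The members' windows held from 50.7% (Acadvl) to 74% (Acsl1) G and C, and the set of all promoters was not matched for this. The overlapping windows of Hadha and Hadhb were counted separately. The Acsl6 window, at chr11:54303574-54303873 on the plus strand, is shown because it holds the ERR site, and that of Hadhb, at chr5:30155003-30155302 on the plus strand, because it also serves its partner Hadha on the opposite strand. Capitals mark AGGTCA, TCAAGGTCA and GGGCGG on either strand.
Acsl6: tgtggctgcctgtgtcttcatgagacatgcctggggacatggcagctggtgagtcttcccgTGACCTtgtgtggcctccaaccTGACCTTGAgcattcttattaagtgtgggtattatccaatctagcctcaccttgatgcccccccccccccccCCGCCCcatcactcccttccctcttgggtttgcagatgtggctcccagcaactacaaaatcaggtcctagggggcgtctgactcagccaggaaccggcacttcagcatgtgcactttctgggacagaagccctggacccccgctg
Hadhb: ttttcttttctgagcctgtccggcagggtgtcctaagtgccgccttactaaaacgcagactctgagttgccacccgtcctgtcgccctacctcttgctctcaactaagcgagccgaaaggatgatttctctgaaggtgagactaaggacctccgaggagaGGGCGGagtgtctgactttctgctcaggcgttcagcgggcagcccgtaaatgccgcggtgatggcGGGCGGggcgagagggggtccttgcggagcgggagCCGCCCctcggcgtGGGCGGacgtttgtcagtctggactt

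The 5 members grouped under the carnitine shuttle had log2 differences between -0.03 and 0.04, and none passed. This group counts in Mlycd, which breaks down an inhibitor of the shuttle. It leaves out the carrier Slc25a20 (log2 difference -0.20, not past the threshold), described further below. Cpt1b, the muscle isoform of carnitine palmitoyltransferase 1, had 8.35, 8.33, 8.35, 8.32 and 8.33 log2 CPM in libraries labelled KO and 8.28, 8.29, 8.28, 8.33 and 8.28 in controls. All libraries labelled KO lay above every control except replicate 5 (log2 difference 0.04, SE 0.05, 95% interval -0.07 to 0.16, adjusted p = 0.832). Of the 31-base words of the Cpt1b transcript, 93.7% also occur in Gm44502, an annotated gene on chromosome 15 whose span contains that of Cpt1b, so reads could be split between them. Gm44502 had a row of its own, between -0.52 and -0.03 log2 CPM in libraries labelled KO and between -0.33 and 0.28 in controls. Crat, which exchanges short acyl groups between CoA and carnitine, had 8.80, 8.80, 8.81, 8.79 and 8.78 log2 CPM in libraries labelled KO and 8.78, 8.79, 8.76, 8.81 and 8.78 in controls. Its difference of 0.01 had a 95% interval from -0.10 to 0.13 (adjusted p = 0.955).

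The other shuttle genes overlapped as well. Cpt2, the inner membrane transferase, differed by 0.03 (SE 0.07, adjusted p = 0.938) and Cpt1a by -0.02 (SE 0.08, adjusted p = 0.954). Mlycd, which breaks down the Cpt1 inhibitor malonyl-CoA, differed by -0.03 (SE 0.07, adjusted p = 0.938). Per kilobase of transcript Cpt1b stood at 112 ± 1.16 CPM in libraries labelled KO and 108 ± 1.69 in controls, far above Cpt1a. Summed over the 5 shuttle genes, the level was 893 to 910 CPM in libraries labelled KO and 880 to 902 CPM in controls.

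**Figure D3:**
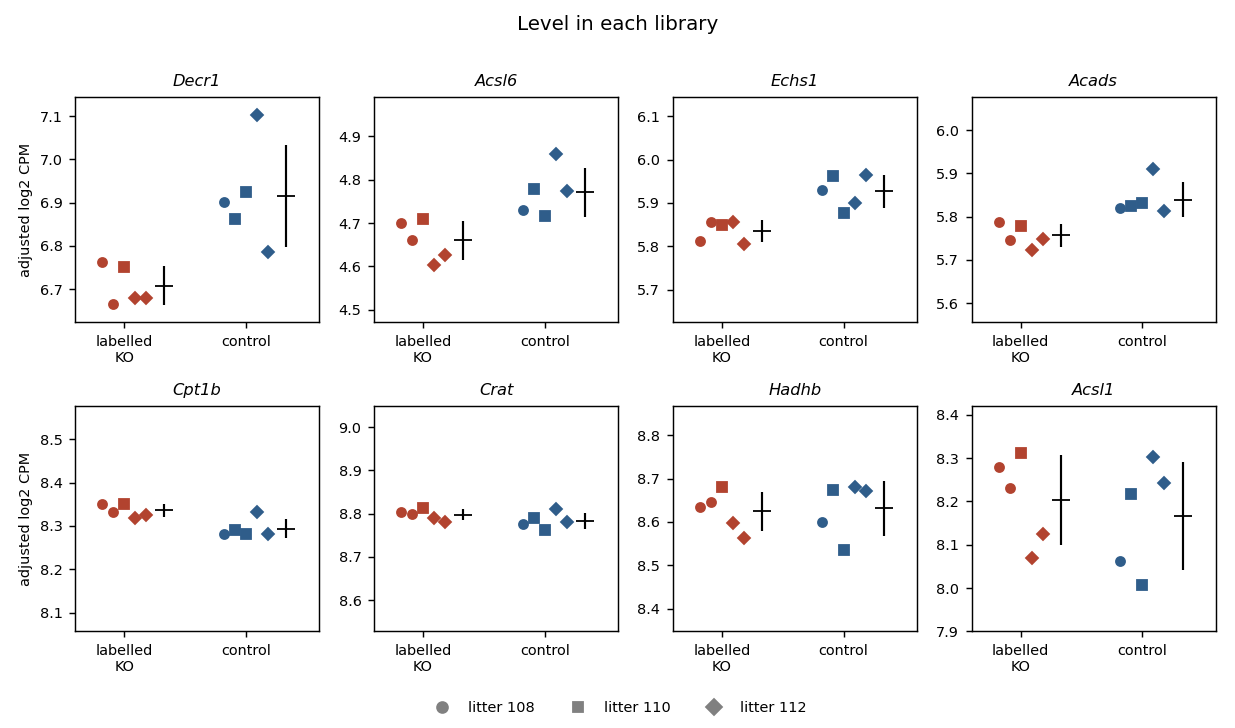
Adjusted log2 CPM of 8 genes in each library; symbols give the litter, black marks the mean ± SD (n = 5), and every panel spans the same height of the log2 scale. In the top row all 5 libraries labelled KO lie below all 5 controls; in the bottom row the groups overlap, and Crat varies least.

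All 4 acyl-CoA dehydrogenases, which catalyse the first oxidation and differ in chain length, had differences below 0, and none passed. Acadm, for medium chains, had 7.73, 7.73, 7.77, 7.78 and 7.68 log2 CPM in libraries labelled KO and 7.88, 7.86, 7.83, 7.95 and 7.78 in controls. Only the highest library labelled KO and the lowest control met (log2 difference -0.12, SE 0.06, adjusted p = 0.523, and 0.0834 with genotype and litter alone). Acads, for short chains, had 5.79, 5.75, 5.78, 5.72 and 5.75 log2 CPM in libraries labelled KO and 5.82, 5.83, 5.83, 5.91 and 5.81 in controls. Its groups did not overlap, with a log2 difference of -0.08 (SE 0.06, adjusted p = 0.679). Acadvl, for very long chains, differed by -0.06 (SE 0.06, adjusted p = 0.788) and Acadl, for long chains, by -0.05 (SE 0.06, adjusted p = 0.828). Without control replicate 5 these were -0.0207 for Acadvl and -0.0109 for Acadl. Acadl was above 0 in litter 110, at 0.03, and below 0 in both other litters, while the other 3 were below 0 in every litter. A processed pseudogene, Gm5131, holds 11.8% of the 31-base words of Acadm.

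The remaining reactions of the cycle are carried out by the trifunctional protein on long chains and by separate matrix enzymes on shorter ones. Hadha and Hadhb, its alpha and beta subunits, lie head to head on chromosome 5, with annotated starts 86 bases apart. Their RefSeq windows share 228 bases. Hadha had 8.021, 8.012, 8.023, 7.944 and 7.987 log2 CPM in libraries labelled KO and 7.997, 8.056, 7.989, 8.047 and 8.088 in controls. Hadhb had 8.63, 8.65, 8.68, 8.60 and 8.56 log2 CPM in libraries labelled KO and 8.60, 8.67, 8.53, 8.68 and 8.67 in controls. Both pairs of groups overlapped, with log2 differences of -0.04 (SE 0.05, adjusted p = 0.868) for Hadha and -0.0073 (SE 0.06, adjusted p = 0.981) for Hadhb. The ratio of Hadha to Hadhb in CPM stayed between 0.634 and 0.671 in libraries labelled KO and between 0.645 and 0.685 in controls. A pseudogene, Gm13910, holds 64.7% of the Hadhb words, so the Hadhb level is less certain than that of Hadha, which shares none.

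Among the separate matrix enzymes, Echs1, the short-chain enoyl-CoA hydratase, had 5.812, 5.857, 5.849, 5.856 and 5.804 log2 CPM in libraries labelled KO and 5.929, 5.962, 5.878, 5.899 and 5.965 in controls. The groups did not overlap, with a log2 difference of -0.09 (SE 0.06, adjusted p = 0.636), and the within-litter values were alike, at -0.10, -0.07 and -0.10. Acaa2, the matrix 3-ketoacyl-CoA thiolase, differed by -0.11 (SE 0.07, adjusted p = 0.647). Hadh, the short-chain hydroxyacyl-CoA dehydrogenase, differed by -0.08 (SE 0.06, adjusted p = 0.740) and Acat1, the acetoacetyl-CoA thiolase, by -0.05 (SE 0.06, adjusted p = 0.808). All 6 genes of these reactions had differences below 0, and 2 of the 6 were below 0 in every litter.

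Decr1 had the largest log2 difference of the 29 in either direction. It encodes the mitochondrial 2,4-dienoyl-CoA reductase, an auxiliary enzyme needed for polyunsaturated chains, and lies on chromosome 4 from 15917240 to 15945507 on the minus strand (GENCODE M21, GRCm38). Decr1 had 6.76, 6.67, 6.75, 6.68 and 6.68 log2 CPM in libraries labelled KO, against 6.90, 6.86, 6.92, 7.10 and 6.79 in controls. The groups did not overlap, and control replicate 5 was the highest. The log2 difference was -0.21 (SE 0.07, 95% interval -0.36 to -0.05), with an unadjusted p of 0.0139 and an adjusted p of 0.345 in limma, so that it did not pass. It was -0.19, -0.14 and -0.26 in litters 108, 110 and 112, and -0.145 without control replicate 5.

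In both other auxiliary genes the groups overlapped. Eci1, a mitochondrial enoyl-CoA isomerase that handles monounsaturated chains, had 5.88, 5.86, 5.92, 5.91 and 5.81 log2 CPM in libraries labelled KO and 5.81, 5.79, 5.77, 5.92 and 5.71 in controls, with overlap through control replicates 1 and 5. Its log2 difference was 0.08 (SE 0.06, adjusted p = 0.752), the highest of the 29, and it was above 0 in every litter. Eci2, an isomerase of mitochondria and peroxisomes, differed by -0.02 (SE 0.07, adjusted p = 0.949), and it shares 12.2% of its 31-base words with Eci3.

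All 3 genes of electron transfer lay below 0 in every litter, and none passed. Etfa, the alpha subunit of the electron transfer flavoprotein, had 6.57, 6.58, 6.63, 6.67 and 6.52 log2 CPM in libraries labelled KO and 6.74, 6.70, 6.67, 6.80 and 6.60 in controls. Replicates 3 and 4 labelled KO lay above the lowest control (log2 difference -0.11, SE 0.06, adjusted p = 0.615). Etfb, the beta subunit, differed by -0.08 (SE 0.06, adjusted p = 0.708), and Etfdh, which hands the electrons to ubiquinone, by -0.08 (SE 0.06, adjusted p = 0.715). Summed over the 3 genes the level was 316.5 to 334.2 CPM in libraries labelled KO and 335.4 to 366 CPM in controls. These sums narrowly did not overlap, although the groups overlapped in each of the 3 genes alone. It was the only step without overlap, and how often sums of other genes separate the groups was not tested. Of the Etfb words, 68% also occur in Gm45233, an annotated gene that overlaps it.

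**Figure D4:**
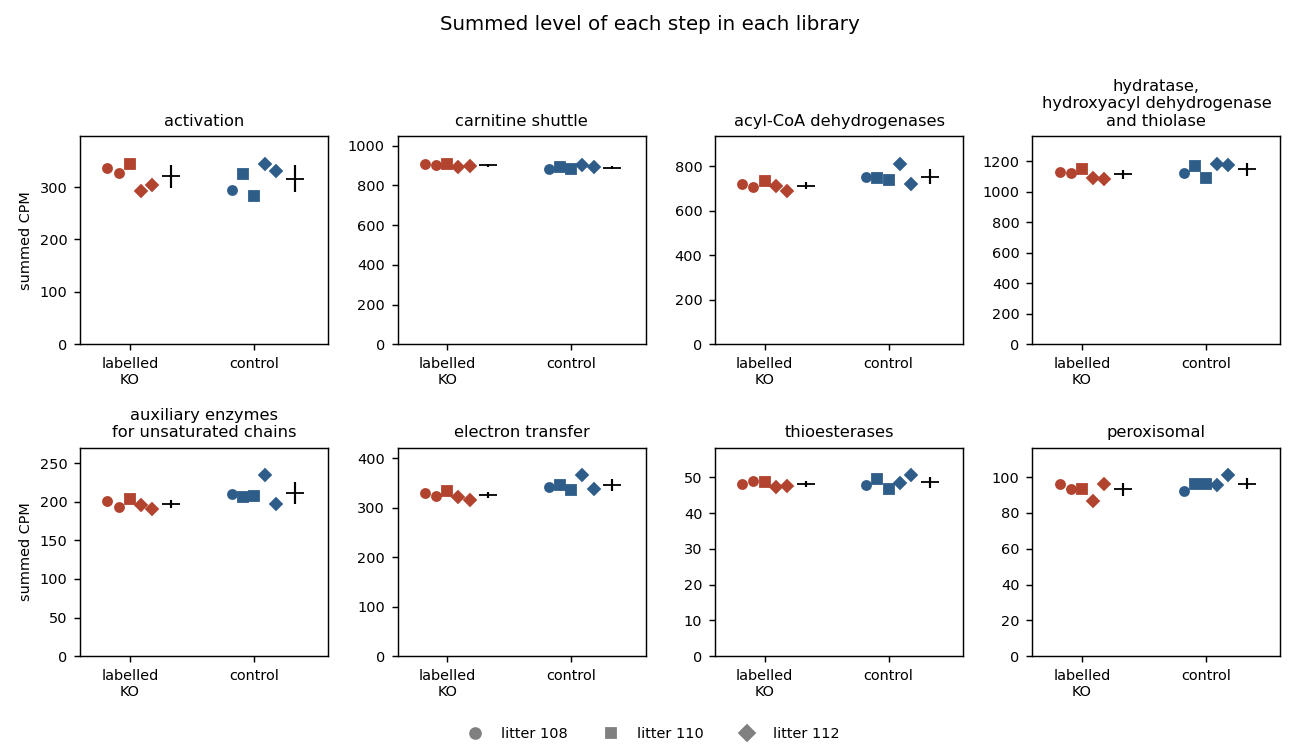
Summed CPM of the genes of each step in each library, with mean ± SD in black (n = 5) and litters as symbols; every axis starts at 0. The groups overlap in every step except electron transfer, where libraries labelled KO reach 334.2 and controls start at 335.4. Each of the 3 genes of that step overlaps on its own.

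The groups overlapped in both thioesterase genes and all 4 peroxisomal genes. Acot13, a thioesterase that associates with mitochondria, stood in the middle of the range at 50.7 ± 0.789 CPM per kilobase in libraries labelled KO and 51.9 ± 1.24 in controls, and differed by -0.03 (SE 0.06, adjusted p = 0.894). Acot2, the mitochondrial acyl-CoA thioesterase, differed by 0.06 with a 95% interval from -0.19 to 0.31 (adjusted p = 0.909), the widest of the 29. Its controls ran from 3.24 to 3.76 log2 CPM and enclosed the libraries labelled KO, at 3.49 to 3.63. Acot2 shares 29.9% of its 31-base words with its neighbour copy Acot1, so its reads could be split. In peroxisomes, Hsd17b4, the D-bifunctional protein, differed by -0.06 (SE 0.07, adjusted p = 0.803), Acaa1a, the peroxisomal thiolase, by -0.07 (SE 0.06, adjusted p = 0.774), Ehhadh by -0.03 (SE 0.11, adjusted p = 0.958) and Pecr, an enoyl-CoA reductase, by 0.06 (SE 0.09, adjusted p = 0.861). Acaa1a shares 43.8% of its words with Acaa1b.

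Across the steps, the members' groups did not overlap in 4 of 29 genes (Decr1, Acsl6, Echs1 and Acads), all with the libraries labelled KO below the controls. Over all genes tested this held for 16.2% in either direction and for 7.63% with the libraries labelled KO below. The summed level of all 29 genes was 3622 to 3816 CPM in libraries labelled KO and 3676 to 3987 CPM in controls, with means of 3714 ± 82.9 and 3807 ± 117 (SD, n = 5 each). The carnitine shuttle made up 24.3% ± 0.361 of that sum in libraries labelled KO and 23.4% ± 0.490 in controls, and electron transfer 8.76% ± 0.0542 in libraries labelled KO and 9.07% ± 0.110 in controls. Over all genes the median difference also ran with transcript length: it was -0.04 for the shortest of 5 classes and 0.05 for the longest. Of the 29 members, 20 fell in the 2 shortest classes, and centring the values within length classes gave a median of -0.03 over the members.

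No gene passed among the wider set of beta-oxidation and peroxisomal enzymes, where 42 of 46 symbols had a row. Their median log2 difference was -0.02, with 23 of 42 below 0, and 1 higher and 1 lower passed with genotype and litter alone. The lower one was Slc25a20 and the higher one Acad12, which is named here after its values were seen and lay above every control in all 5 libraries labelled KO (log2 difference 0.15, adjusted p = 0.411, and 0.0138 with genotype and litter alone). The smallest p-values were those of Slc25a20 and Acacb. Slc25a20, the carrier that brings acylcarnitines across the inner membrane and so completes the shuttle, had 6.16, 6.10, 6.16, 6.02 and 6.07 log2 CPM in libraries labelled KO, against 6.24, 6.31, 6.24, 6.40 and 6.31 in controls. The groups did not overlap (log2 difference -0.20, SE 0.06, adjusted p = 0.306, and 0.0251 with genotype and litter alone). Acacb, the acetyl-CoA carboxylase that makes malonyl-CoA at mitochondria, had 8.55, 8.45, 8.45, 8.28 and 8.54 log2 CPM in libraries labelled KO and 8.17, 8.23, 8.30, 8.26 and 8.34 in controls, with a log2 difference of 0.19 (SE 0.07, adjusted p = 0.379, and 0.0749 with genotype and litter alone). The lowest library labelled KO reached into the range of the controls.

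Regulators and uptake genes of the pathway had a median log2 difference of 0.06, with 16 of 25 above 0. None of the 25 passed; with genotype and litter alone 6 higher and 1 lower did, 1 passed without a litter term, with the replicate block and when control replicate 4 or control replicate 5 was left out, and 2 passed when KO replicate 4 was left out. Ppara, the nuclear receptor that activates many of these enzyme genes in liver and heart, had 4.59, 4.32, 4.40, 3.98 and 4.47 log2 CPM in libraries labelled KO, against 3.48, 3.61, 3.72, 3.85 and 3.76 in controls. All libraries labelled KO lay above all controls, and the log2 difference of 0.67 (SE 0.13) had an adjusted p of 0.067. Lpl, the lipase that frees fatty acids from circulating triglyceride, differed by 0.28 (SE 0.05, adjusted p = 0.0642), likewise without overlap. Fabp3 and Ppargc1a are named here after their values were seen. Fabp3, the lower gene with genotype and litter alone, differed by -0.23 (limma adjusted p = 0.219, and 0.0156 in that fit). Its libraries labelled KO lay below all controls. Ppargc1a had the largest difference of the list, at 0.81 (limma adjusted p = 0.212), and its groups overlapped. It was 1.14, 1.39 and 0.21 in litters 108, 110 and 112. The highest log2 difference among the 29 members was 0.08, and any link between Ppara and the enzymes was not tested. Among 18 other enzymes of the mitochondrial matrix, mostly of the tricarboxylic acid cycle, none passed in either fit, the median log2 difference was -0.02 and 11 lay below 0. Pdhb, a pyruvate dehydrogenase subunit, came closest at -0.09 (adjusted p = 0.662), followed by Suclg1, a succinyl-CoA ligase subunit, at -0.08 (adjusted p = 0.703).

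Markers of the fibre and cell types that the tissue could hold were read beside these values, and none passed in the fit with the removed terms counted. Markers of slow and oxidative fibres, in which these enzymes are abundant, had summed levels of 398 to 598 CPM in libraries labelled KO and 468 to 750 CPM in controls, most of it Myh2. Their median log2 difference was -0.04, with 4 of 8 below 0; Casq2 differed by -0.39 (adjusted p = 0.184) and Atp2a2 by 0.21 (adjusted p = 0.332), and with genotype and litter alone both passed. Without Myh2 the sums were 78.8 to 89.0 CPM in libraries labelled KO and 80.5 to 86.6 CPM in controls. Adipocyte markers lay below 0 in 7 of 7 tested, with a median of -0.89, and summed, without Car3, which muscle also expresses, to 69.1 to 79.5 CPM in libraries labelled KO and 80.0 to 96.8 in controls. Most of that sum was Fabp4, at 62.7 CPM in libraries labelled KO and 64.6 CPM in controls (log2 difference -0.05). With genotype and litter alone 4 of the 7 passed, all lower. With the replicate block 2 passed, and 1 did without a litter term, after centring on the library median, and without KO replicate 1, KO replicate 5, control replicate 3 or control replicate 4. Lep, at -2.21 (adjusted p = 0.0642), and Cidec, at -1.20 (adjusted p = 0.121), came closest. Both were low, with Lep at 0.72 CPM in libraries labelled KO and 3.34 CPM in controls. Cidec stood at 0.96 CPM in libraries labelled KO and 2.23 CPM in controls. The part of fibre types and of fat tissue in the small differences of the enzymes was not tested. The brown adipocyte markers Ucp1 and Cidea and the hepatocyte markers had no row, and Cox7a1, which muscle also expresses, differed by 0.02. The median log2 difference was 0.01 over 6 muscle fibre markers, 2 of them below 0 (Acta1 0.15, Mb -0.14), 0.05 over 5 endothelial markers, 2 of them below 0 (Kdr 0.15, Pecam1 0.06, Tek -0.07, Cdh5 -0.04), -0.10 over 5 macrophage markers, all below 0 (Adgre1 -0.23, Mrc1 -0.14), -0.09 over 5 fibroblast markers, 4 below 0 (Dcn -0.15, Col3a1 -0.11) and -0.04 over 5 blood markers, 4 below 0 (Hba-a2 -0.17, Hbb-bs -0.08).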

How the data were processed

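Tibialis anterior RNA (TRIzol) went into strand-specific libraries primed with oligo-dT, per the labels' protocols. The submitters' processing notes name fastp, kallisto and limma without versions, and the sources used here give no genome build or annotation. The deposited values, for 13492 genes, are log2 CPM that the authors had adjusted. What the adjustment removed was checked on the values: with genotype in the fit no gene differed between litters by more than 6.7e-14, and the residuals left 3 of 6 dimensions, so litter and 3 further terms had been removed with genotype kept. SDs leave out that variation, and depth is unknown.

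The test was limma 3.58.1 in R 4.3.3 (lmFit, eBayes with a trend), two-sided, with genotype, litter and the removed terms in the fit, over the 12223 genes that averaged 0 or more on the log2 scale; 1269 were left out. The fit with genotype and litter alone was an alternative. The members, the lists and the choice of fit were made with earlier results of these data known. Named from each further list were genes past the threshold, or the 2 with the smallest p. Positions, lengths of the longest coding transcript and shared 31-base words came from GENCODE M21 (GRCm38), which need not be the authors' annotation. Replicate numbers were in both groups for 1, 3, 4 and 5, but number 4 joins litters 112 and 110, so they do not pair the libraries.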

Additional observations from a re-analysis of the deposited data

Results flagged for a closer look

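In 5 of 58 groups of 5 libraries, 1 library stood further from the other 4 than Dixon's 95% critical value allows. Chance would flag about 1 in 20 independent groups. These groups share the same libraries and adjusted values, so the count cannot be read against that rate. Of the 5 flagged groups, 4 share control replicate 5 as the highest control. Cpt1b stood at 8.333 log2 CPM there, against 8.28 to 8.29 in the other controls. Acadvl stood at 8.103, against 7.93 to 7.97. Acads stood at 5.909, against 5.81 to 5.83. Etfdh stood at 7.439, against 7.30 to 7.33. In libraries labelled KO, replicate 4 was the lowest for Hsd17b4 at 5.347 log2 CPM, against 5.46 to 5.49 in the others.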

How the results depend on the processing

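The count of enzymes past the threshold was 0 of 29 in all 20 alternatives, which covered scaling, filters, the moderation of variances, litter and leaving out each library. Their median log2 difference kept its sign, from -0.08 without control replicate 1 to -0.03 without control replicate 5. Over all genes the count of 41 became 1054 with genotype and litter alone, 26 after quantile normalization and 1 without a trend in the moderation, and ran from 8 to 60 without 1 library (8 without control replicate 1, 11 without KO replicate 3, 17 and 20 without control replicates 6 and 5), where leaving out control replicate 1 or KO replicate 3 takes a whole litter out of the comparison; the cause was not tested beyond the degrees of freedom counted. With the number as a replicate block, 128 genes passed and the members' median was -0.04. The correlations of same-numbered libraries were -0.846, 0.452, 0.0316 and -0.502. They cannot show whether the numbers pair the libraries, because removing litter with genotype kept ties the deviations within each litter. Sign changes were limited to differences near 0: Crat became -0.0171 after quantile normalization, and within length classes Crat became -0.0002, Acot13 0.0079, Eci2 0.0221 and Hadhb 0.0164. Without 1 library the ranges that crossed 0 were -0.0281 to 0.0826 for Acsl1, -0.0845 to 0.0543 for Ehhadh, -0.0405 to 0.0131 for Hadhb, -0.0614 to 0.0118 for Eci2, -0.0131 to 0.0704 for Cpt2, -0.0197 to 0.156 for Acot2, -0.0677 to 0.0099 for Cpt1a and -0.079 to 0.0172 for Mlycd. Further ranges kept their sign but moved by over 1.5 times from the difference with every library kept. These were -0.084 to -0.0207 for Acadvl, -0.0847 to -0.0109 for Acadl, -0.0851 to -0.0215 for Acat1, -0.1134 to -0.0333 for Hadh, -0.0608 to -0.0199 for Hadha, -0.1321 to -0.0623 for Acaa2, -0.1018 to -0.0414 for Etfdh, -0.051 to -0.0152 for Acot13, -0.0909 to -0.045 for Acaa1a, -0.1045 to -0.0245 for Hsd17b4, 0.0246 to 0.1 for Pecr, 0.0443 to 0.115 for Eci1 and 0.0037 to 0.0229 for Crat. Decr1 ran from -0.25 to -0.145. Depth is unknown, so counting error could not be given.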
